A study of Drosophila melanogaster with 12 samples.

Results

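The 33 genes described here encode basic helix-loop-helix (bHLH) transcription factors of Drosophila melanogaster, without the repressors of the Enhancer of split complex. Members were taken by gene symbol from a fixed list, and each was read from a probe set annotated with that gene alone. Of the 33 genes, 30 were measured, out of 11982 genes that had such a probe set. No probe set is named for h, sim or Myc alone in the annotation used here, so these 3 were not analysed. Fer1, dysf and gce had more than 1 probe set, and the one with the highest mean over the 12 arrays was used. The probe sets of Clk and Mnt are of the kind that can match more than 1 transcript.

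All cells came from embryos at late stage 11 to early stage 12 in which twi-gal4 drove UAS-GFP, so that cells expressing Twist were marked, and GFP-positive cells were sorted from dissociated embryos. The Slou gain-of-function group carried UAS-S59 in addition, which expresses the homeodomain factor Slouch, and the Msh gain-of-function group carried UAS-msh, for the homeodomain factor named Drop (Dr) or Msh. Wild type set 1 served for Slou and wild type set 2 for Msh, with 3 arrays in each of the 4 groups; the driver marks all Twist-expressing cells rather than any single mesodermal lineage. Separate embryo collections behind the 3 arrays are not stated, so p-values describe array-to-array spread that could be technical.

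bHLH proteins bind DNA as dimers. Tissue-restricted members, among them the proneural proteins that select neural precursors, pair with the ubiquitous protein Daughterless (Da). Extramacrochaetae (Emc) pairs with Da or proneural proteins instead, in dimers that cannot bind DNA because Emc has no basic region. Many members with a PAS domain pair with Tango (Tgo) or Cycle. The PAS members act in the midline, the trachea, the clock and the responses to hypoxia and hormone, while Myc, Max and Mnt form a network with a leucine zipper. In the Drosophila embryo, lethal of scute (l(1)sc) is known both for neuroblasts and for the clusters of mesodermal cells from which muscle progenitors are chosen.

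The deposited values are on a log2 scale and fall in separately scaled parts, with array medians of 2.64 to 2.72 in Slou and 2.59 to 2.69 in wild type set 1, against 3.88 to 3.91 in Msh and 3.85 to 3.9 in wild type set 2. Each gain of function was therefore compared within its own scaling. Correlations between arrays of a group ran from 0.895 to 0.944. The slou probe set read 11.01, 11.08 and 11.12 in the Slou arrays, against 5.45, 5.69 and 5.61 in wild type set 1. The Dr probe set read 9.34, 9.34 and 9.38 in the arrays labelled Msh, against 8.77, 9.17 and 9.16 in wild type set 2. The log2 difference for Dr, 0.32 ± 0.14 (SE), did not pass (limma, adjusted p = 0.254), so the data do not check the Msh label, and every Msh result is that of the arrays so labelled. Dr was lower in Slou, by -2.80 ± 0.14, and slou in Msh, by -0.57 ± 0.10 (SE; limma, adjusted p = 0.00569 and 0.0458). Of 10 mesoderm markers 7 had a probe set, and all 7 lay above background on every array of the 4 groups. Of 11 markers of neurons, neuroblasts and glia, 10 had a probe set and 8 lay above background on all arrays of each group. Fewer cells of a type and less RNA per cell cannot be told apart in these bulk samples.

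In wild-type sorted cells, 19 of the 30 members lay above background in both sets. Background was set on each array as the 95th percentile of 185 chemoreceptor probe sets, and a gene had to exceed it on all 3 arrays of a group. This gave 19 members in wild type set 1, where 49.2% of the 11982 genes passed, and 22 in wild type set 2, where 54.0% passed. Fer1, Fer2 and HLH3B passed in wild type set 2 and not in wild type set 1, whereas no member passed in wild type set 1 alone.

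All 6 measured members of the ubiquitous class were above background in both sets. They were da, emc, tgo (the partner of several PAS members), Max, Mnt (a repressor that pairs with Max) and crp (the relative of the vertebrate factor AP-4). The emc probe set read 10.24, 10.36 and 10.26 in wild type set 1 and 12.08, 12.11 and 12.05 in wild type set 2. The da probe set read 8.78, 8.79 and 8.74 in wild type set 1 and 10.96, 10.90 and 10.86 in wild type set 2. Both genes stood far above the thresholds, which were 2.90 to 3.24 in wild type set 1 and 4.17 to 4.52 in wild type set 2.

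Of the 8 proneural and neural members, 6 were above background in both wild-type sets: ac, sc, l(1)sc and ase of the achaete-scute complex, ato (the proneural gene of chordotonal organs and photoreceptors) and tap (a relative of the vertebrate neurogenins). The remaining pair, cato and amos, which act in sense organ formation, were not above background in either set. The Hairy-related repressors dpn, a neuroblast factor, and Hey, a target of Notch signalling in neurons, passed in both. Among the other tissue-restricted genes, Fer3, Oli (the Olig relative, known from motor neurons) and net (a suppressor of wing veins) passed in both sets, and HLH4C in neither. Of the 8 measured PAS members, 3 passed in both sets: sima (the hypoxia factor), tgo and Clk (the clock activator). The PAS members ss, dysf, Met, gce and cyc passed in neither, though ss and Met each exceeded the threshold on 2 of the 3 arrays of wild type set 2.

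**Figure D1:**
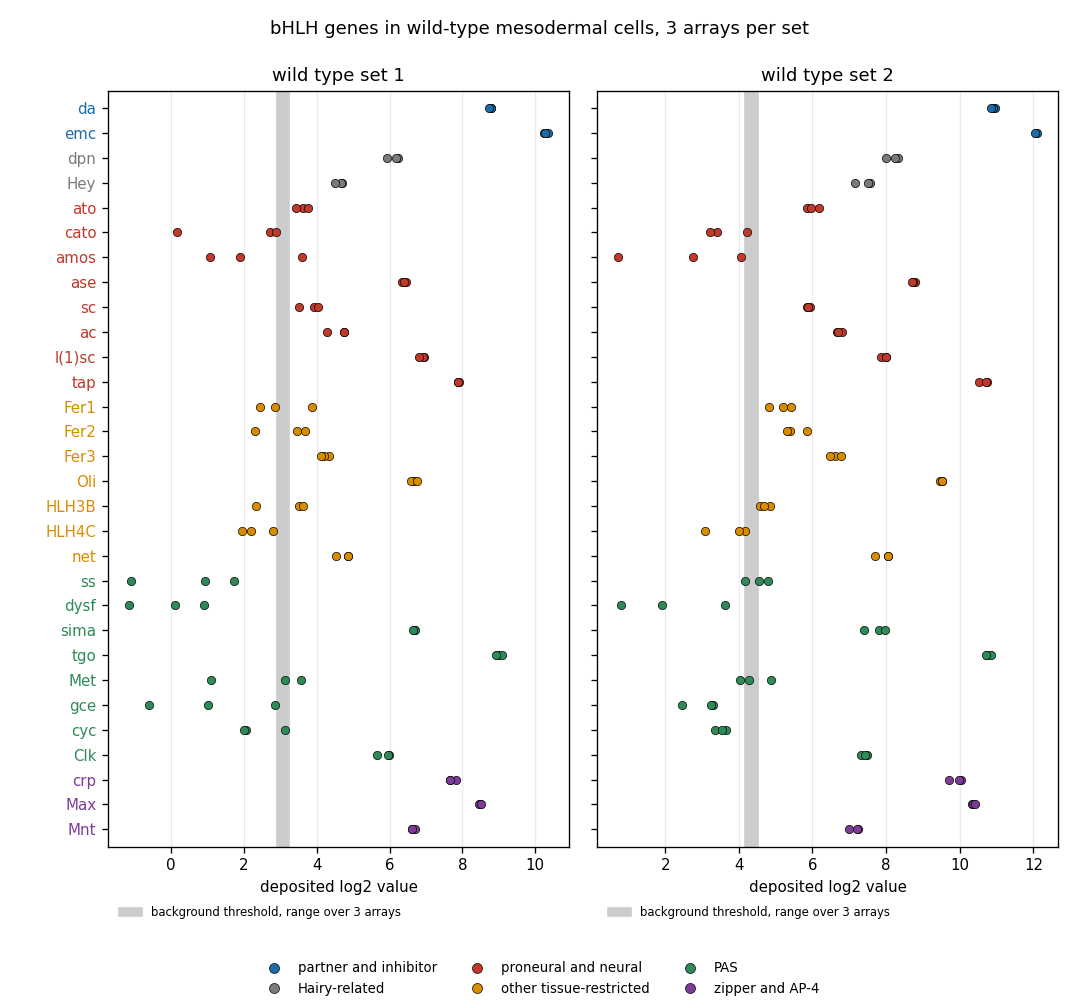
Deposited log2 values of the 30 measured bHLH genes on the 3 arrays of wild type set 1 and of wild type set 2; the grey bands show the range of the background thresholds, 2.90 to 3.24 and 4.17 to 4.52. The ubiquitous genes lie well above the band in both panels, whereas ss, dysf, gce and cyc lie at or under it in at least part of the arrays; probe sets differ in their affinity, so heights of different genes are not to be ranked.

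The Slou comparison asks which bHLH genes change when Slouch is expressed throughout the mesoderm. Of the 30 members 2 passed, the neural genes tap and Oli, and both fell. That is 6.67% of the members, against 2.31% of all 18769 probe sets tested (1.24% higher and 1.08% lower); among probe sets with a 6-array mean above background the shares were 10.5% (2 of 19 members) and 4.64%. The median log2 difference was -0.28 over the members and -0.01 over all probe sets. On 13 members all 3 Slou arrays lay lower than every wild type set 1 array, and on 1 member, net, all lay higher; over all probe sets the groups did not overlap for 25.3%, with 12.8% wholly lower and 12.5% wholly higher.

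The tap probe set read 6.63, 6.67 and 6.71 in the Slou arrays, against 7.89, 7.90 and 7.87 in wild type set 1. Every Slou array was lower than every wild-type array, and arrays of 1 group lay close together. The log2 difference was -1.22 ± 0.09 (SE, n = 3 and 3; 95% confidence interval -1.45 to -0.98), a level 2.33-fold lower (limma, adjusted p = 0.0112). The Oli probe set read 5.86, 5.82 and 5.77 in the Slou arrays, against 6.67, 6.59 and 6.76 in wild type set 1. These groups also did not overlap, with a log2 difference of -0.86 ± 0.10 (SE; interval -1.11 to -0.60), or 1.81-fold lower (limma, adjusted p = 0.0279). With 1 array of either group left out, whichever of the 6 it was, no member passed, and none passed with the replicate letters as a block.

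Clk read 4.99, 4.55 and 4.73 in the Slou arrays, against 5.99, 5.95 and 5.67 in wild type set 1. All Slou values were lower, but the log2 difference of -1.12 ± 0.17 (SE) just missed the threshold (limma, adjusted p = 0.0544). The Notch-responsive gene Hey read 3.64, 4.12 and 3.51 in the Slou arrays, against 4.69, 4.68 and 4.51 in wild type set 1. Its groups did not overlap either, with a log2 difference of -0.87 ± 0.20 (SE; limma, adjusted p = 0.132). For the inhibitor gene emc the values were 9.82, 9.91 and 9.88 in the Slou arrays, against 10.24, 10.36 and 10.26 in wild type set 1. The Slou arrays were the lower ones throughout, by 0.42 on the log2 scale, and the difference did not pass (limma, adjusted p = 0.138). The net probe set, the only one with all Slou arrays higher, read 5.24, 5.47 and 5.27 in the Slou arrays, against 4.87, 4.86 and 4.53 in wild type set 1 (log2 difference 0.57 ± 0.15, SE; limma, adjusted p = 0.173).

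The achaete-scute complex genes did not pass in Slou. The ac probe set, for a proneural gene of external sense organs, read 4.06, 3.51 and 4.02 in the Slou arrays, against 4.76, 4.74 and 4.28 in wild type set 1. For l(1)sc the values were 6.59, 6.56 and 6.34 in the Slou arrays, against 6.95, 6.91 and 6.81 in wild type set 1. For ase, a factor of neuroblasts and sense organ precursors, they were 6.12, 6.14 and 6.10 in the Slou arrays, against 6.44, 6.35 and 6.39 in wild type set 1. All 3 genes were lower on every Slou array, with log2 differences of -0.73, -0.40 and -0.28 and limma adjusted p-values of 0.251, 0.234 and 0.273. The partner of ac in sense organs, sc, read 4.19, 3.96 and 3.81 in the Slou arrays, against 3.51, 3.92 and 4.04 in wild type set 1. Its groups overlapped. Over the 8 proneural and neural members, 1 of 8 passed, against 2.31% of all probe sets. Of the 8, 6 had a difference under 0, and the median was -0.56.

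Of the 6 measured ubiquitous members, 0 passed in limma's Slou comparison, and 3 had an unadjusted p under the same threshold; their median was -0.15. The 95% intervals of the log2 difference were -0.20 to 0.27 for da, -0.21 to 0.31 for tgo and -0.22 to 0.24 for Max. Changes within those bounds are not excluded. The bounds are not limits of detection, since emc at -0.42 did not pass either (limma, adjusted p = 0.138). Of the 8 measured PAS members 0 passed in limma's Slou comparison, 1 (Clk) had an unadjusted p under the threshold, and the median was 0.09.

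Of the tissue-restricted genes, Fer3 had the widest scatter among those above background in wild type. It read 2.72, -0.08 and 3.48 in the Slou arrays, of which 1 lay above background, against 4.34, 4.19 and 4.12 in wild type set 1. The Slou arrays were all lower, but they spread over several log2 units and the difference did not pass (limma, adjusted p = 0.401). Fer1, Fer2, HLH3B and HLH4C lay at or under background on all 3 Slou arrays, so their differences are between values near background.

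**Figure D2:**
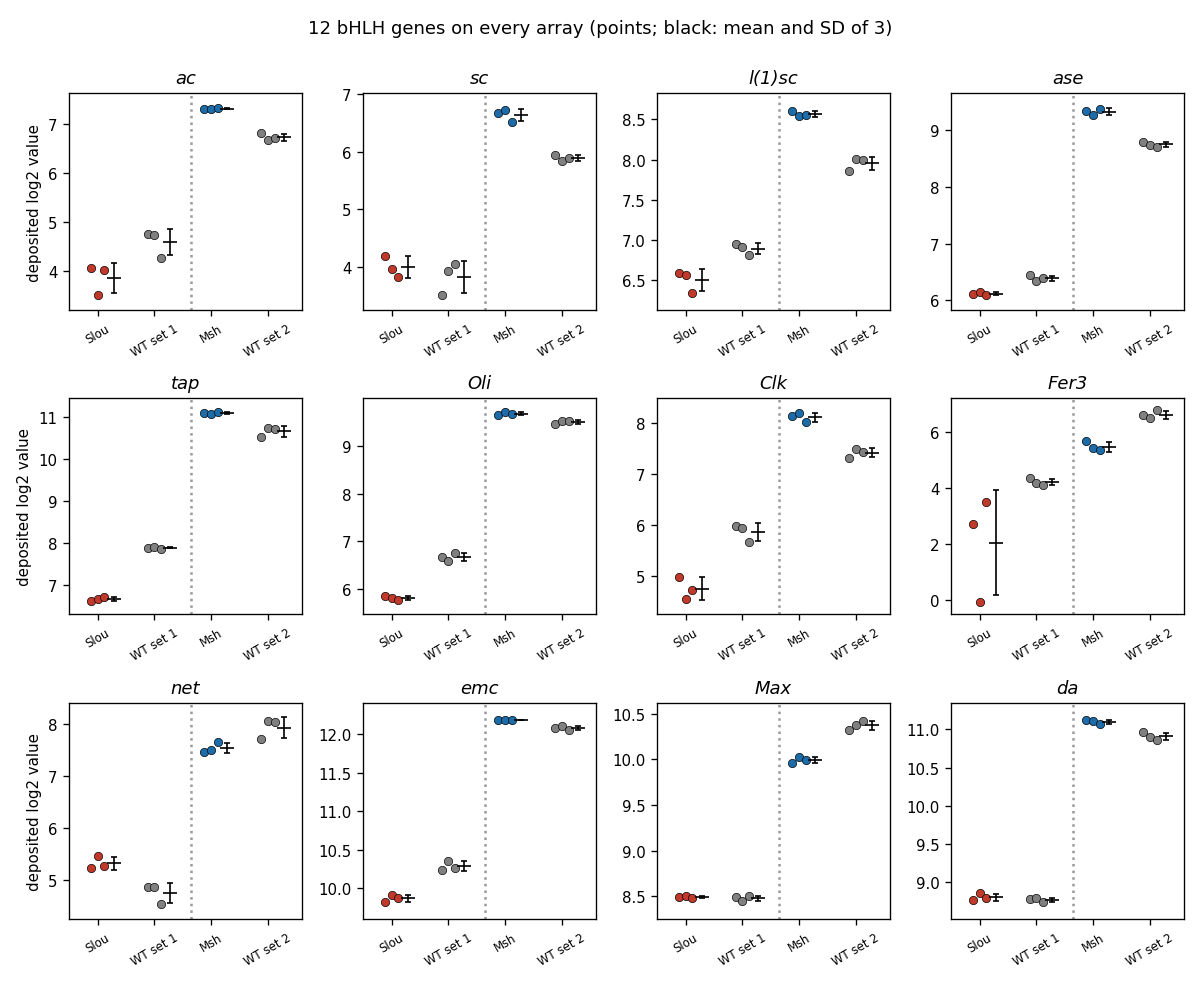
Deposited log2 values on every array for 12 of the genes, with Slou and wild type set 1 in the left part of each panel and Msh and wild type set 2 in the right part; points are arrays and bars are means of 3. The tap and Oli points lie lower in Slou than in wild type set 1, ac, sc, l(1)sc, ase and Clk lie higher in Msh than in wild type set 2, and da differs little in either pair; levels in the left and right parts are on different scales.

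In the Msh comparison 6 of 30 members passed, 5 that rose and 1 that fell. All 4 measured genes of the achaete-scute complex rose, together with Clk, while Fer3 fell. The share of 20.0% compares with 6.81% of all probe sets (2.86% higher and 3.95% lower); among probe sets with a 6-array mean above background the shares were 25.0% (6 of 24 members) and 13.2%. The median log2 difference was 0.18 over the members and 0.02 over all probe sets. On 14 members all 3 Msh arrays lay higher than every wild type set 2 array and on 4 all lay lower; over all probe sets the groups did not overlap for 32.8%, with 17.5% wholly higher and 15.3% wholly lower.

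The sc probe set read 6.67, 6.73 and 6.52 in the Msh arrays, against 5.94, 5.84 and 5.88 in wild type set 2. For ac the values were 7.29, 7.30 and 7.32 in the Msh arrays, against 6.80, 6.66 and 6.70 in wild type set 2. In both genes each Msh array exceeded each wild-type array by far more than the spread within a group. The log2 difference was 0.75 ± 0.09 (SE; interval 0.52 to 0.99) for sc, a 1.69-fold rise (limma, adjusted p = 0.0200). For ac it was 0.59 ± 0.08 (SE; interval 0.39 to 0.78), a 1.5-fold rise (limma, adjusted p = 0.0233).

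The l(1)sc probe set read 8.61, 8.54 and 8.56 in the Msh arrays, against 7.86, 8.01 and 7.99 in wild type set 2. That of ase read 9.34, 9.26 and 9.37 in the Msh arrays, against 8.79, 8.74 and 8.71 in wild type set 2. Neither gene had overlapping groups. The log2 difference was 0.62 ± 0.08 (SE; interval 0.41 to 0.83) for l(1)sc, or 1.53-fold (limma, adjusted p = 0.0238), and 0.58 ± 0.07 (SE; interval 0.39 to 0.77) for ase, or 1.49-fold (limma, adjusted p = 0.0228). The 4 differences lay between 0.58 and 0.75, with a median of 0.60.

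The other members of the proneural and neural class also had differences above 0 in Msh, without passing. The tap probe set read 11.09, 11.06 and 11.12 in the Msh arrays, against 10.51, 10.73 and 10.72 in wild type set 2. All Msh arrays were higher, by 0.44 ± 0.09 (SE) on the log2 scale (limma, adjusted p = 0.0628). The sense organ gene cato read 4.75, 4.92 and 4.71 in the Msh arrays, all above background, against 4.23, 3.42 and 3.21 in wild type set 2, all at background. Its Msh mean lay 0.47 above the mean wild-type threshold. The 95% interval of its log2 difference was 0.41 to 1.93, and it did not pass (limma, adjusted p = 0.0926). For amos, a gene of olfactory and multidendritic neurons, the values were 4.48, 4.76 and 4.64 in the Msh arrays, against 0.72, 4.07 and 2.76 in wild type set 2. It too was above background on every Msh array and on no wild type set 2 array, its Msh mean 0.30 above the mean wild-type threshold. The 95% interval of its difference, -0.18 to 4.4, included 0 (limma, adjusted p = 0.253). On the Msh arrays cato and amos stayed under the 99th percentile of the chemoreceptor probe sets, at 5.66, 5.74 and 5.89. For ato the values were 6.27, 6.10 and 6.26 in the Msh arrays, against 6.17, 5.86 and 5.95 in wild type set 2, and the groups overlapped. Over the 8 proneural and neural members 4 rose, against 2.86% of all probe sets, and all 8 differences were above 0. On 7, cato and amos included, the Msh arrays were wholly higher, against 17.5% of all probe sets. The median was 0.60. Outside this class, the neuroblast factor dpn had log2 differences of 0.04 in Slou and -0.05 in Msh. Hey was at -0.12 in Msh, and none of these passed (limma, adjusted p = 0.929, 0.865 and 0.677).

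Clk read 8.13, 8.19 and 8.01 in the Msh arrays, against 7.32, 7.49 and 7.44 in wild type set 2. The groups did not overlap, and the log2 difference was 0.70 ± 0.09 (SE; interval 0.46 to 0.93), a 1.62-fold rise (limma, adjusted p = 0.0242). Its partner gene cyc was at background on all 12 arrays. Another PAS gene, ss, which acts in antenna and dendrite development, read 5.19, 5.19 and 5.54 in the Msh arrays, against 4.18, 4.54 and 4.79 in wild type set 2. All Msh arrays were higher, by 0.80 ± 0.20 (SE) on the log2 scale, without passing (limma, adjusted p = 0.0925). Of the 8 measured PAS members 1 passed, and their median was 0.27.

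Fer3 read 5.68, 5.42 and 5.34 in the Msh arrays, against 6.60, 6.49 and 6.77 in wild type set 2. Every Msh array was lower, and the log2 difference was -1.14 ± 0.13 (SE; interval -1.49 to -0.80), or 2.21-fold lower (limma, adjusted p = 0.0194). Mnt and net were also lower on all 3 Msh arrays, with log2 differences of -0.44 ± 0.13 and -0.39 ± 0.13 (SE) that did not pass (limma, adjusted p = 0.142 and 0.168). Max read 9.96, 10.02 and 9.99 in the Msh arrays, against 10.32, 10.37 and 10.42 in wild type set 2. It was lower throughout, by 0.38 on the log2 scale, and lay just outside the threshold (limma, adjusted p = 0.0504).

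None of the other ubiquitous members passed either: 0 of 6 did in limma's Msh comparison, 3 had an unadjusted p under the threshold, and the median was 0.14. The 95% interval of the log2 difference was 0.01 to 0.37 for da, -0.06 to 0.28 for emc and -0.03 to 0.39 for tgo. Without 1 array, 0 members passed for 5 of the 6 arrays in turn; without wild type set 2 replicate A, 4 members passed. With the replicate letters as a block 0 members passed. In a fit of 12 arrays 6 members passed as well, but ac (adjusted p = 0.0718) and Fer3 (adjusted p = 0.468) were replaced by tap and Max (limma, adjusted p = 0.00879 and 0.00701). Against wild type set 1 after quantile normalization, the Msh difference was -0.21 for l(1)sc and 0.35 for Clk, and neither passed (limma, adjusted p = 0.161 and 0.13).

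**Figure D3:**
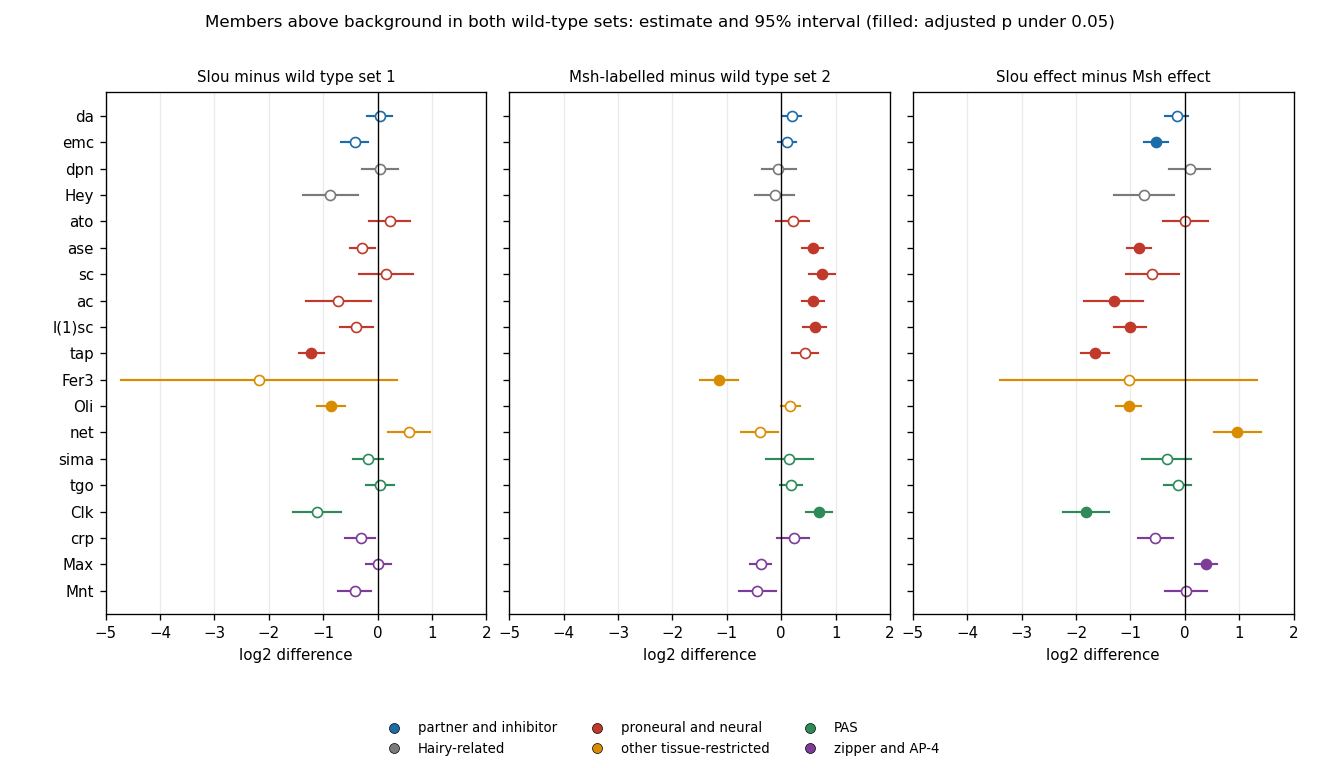
Log2 differences with 95% confidence intervals for the 19 members above background in both wild-type sets, in Slou against wild type set 1, Msh against wild type set 2, and the Slou effect minus the Msh effect; filled points passed limma's test at an adjusted p of 0.05. In the Slou panel tap and Oli are filled, at -1.22 and -0.86, in the Msh panel the 4 achaete-scute genes, Clk and Fer3, and in the difference panel 9 genes.

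Whether the effects of Slou and Msh differed was tested directly, as the Slou effect minus the Msh effect over the 12 arrays, each effect taken against its own wild-type set. The comparisons share no arrays. Of 30 members 9 passed, against 9.22% of all probe sets (4.76% higher and 4.46% lower): 7 had a lower effect in Slou than in Msh, and 2 a higher one. The 7 were tap, Oli, ase, l(1)sc and ac among the neural genes, Clk, and emc; the 2 were net and Max. For ac, l(1)sc and ase the difference of effects was -1.31 ± 0.24, -1.01 ± 0.13 and -0.85 ± 0.10 (SE; limma, adjusted p = 0.0109, 0.00178 and 0.000913). For sc it was -0.60 ± 0.21 (SE) and did not pass (limma, adjusted p = 0.138). The value for tap was -1.66 ± 0.11 (SE; limma, adjusted p = 5.46e-05), from an effect of -1.22 in Slou and 0.44 in Msh. For Oli, with effects of -0.86 in Slou and 0.17 in Msh, it was -1.03 ± 0.10 (SE; limma, adjusted p = 0.000407). Clk had effects of -1.12 in Slou and 0.70 in Msh, and a difference of -1.81 ± 0.19 (SE; limma, adjusted p = 0.000544). In the proneural and neural class 4 of 8 members passed, all lower, and the median was -1.16; in the ubiquitous class 1 of 6 was higher and 1 lower, with a median of -0.14.

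Among ubiquitous genes, emc had effects of -0.42 in Slou and 0.11 in Msh, and a difference of -0.53 ± 0.10 (SE; limma, adjusted p = 0.0104). Its inhibitory target, the Da protein, is encoded by a gene whose effects were 0.04 in Slou and 0.19 in Msh. Max had effects of 0.01 in Slou and -0.38 in Msh, with a difference of 0.39 ± 0.09 (SE; limma, adjusted p = 0.0310). That call for Max held in 4 of 16 alternatives, while those for the other 8 genes held in all 16. None of these alternatives exchanged the wild-type sets. The vein gene net had its effects on the opposite sides of 0, at 0.57 in Slou and -0.39 in Msh, with a difference of 0.96 ± 0.19 (SE; limma, adjusted p = 0.0155). The relative of AP-4, crp, lay just outside the threshold at -0.54 ± 0.14 (SE; limma, adjusted p = 0.0502).

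Genes that act with or after the proneural factors were read from a list of 15 neural precursor genes, of which 13 had a probe set. For this and the lists below, the shares of all probe sets that passed were 2.31% in Slou, 6.81% in Msh and 9.22% for the difference of effects. Of the 13 genes, 3 fell in Slou and none rose, all 13 differences were under 0 and the median was -0.63. The 3 were nerfin-1 (-1.15 ± 0.11, SE), a zinc finger gene of early neurons, pros (-0.98 ± 0.10), a factor that moves the daughters of neuroblasts towards differentiation, and Brd (-0.86 ± 0.10), an inhibitor of Notch signalling (limma, adjusted p = 0.0174, 0.0196 and 0.0275). In Msh 4 rose and 1 fell, with a median of 0.31. The risers were sens (1.22 ± 0.07), which maintains proneural expression in sense organ precursors, mira (0.69 ± 0.10), an adaptor of asymmetric division, phyl (0.54 ± 0.07), which acts in sense organ precursors, and Brd (0.44 ± 0.07); limma's adjusted p-values were 0.00618, 0.0321, 0.0216 and 0.0347. The RNA-binding protein gene fne fell by 0.85 on the log2 scale (limma, adjusted p = 0.0154). The effects of Slou and Msh differed for 10 of the 13, all lower in Slou, with a median of -0.89. Those with the smallest p were Brd (-1.29 ± 0.10), nerfin-1 (-1.30 ± 0.12), pros (-1.06 ± 0.12) and wor (-0.94 ± 0.11), a neuroblast factor; limma's adjusted p-values were 0.000119, 0.000321, 0.000988 and 0.00105.

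**Figure D4:**
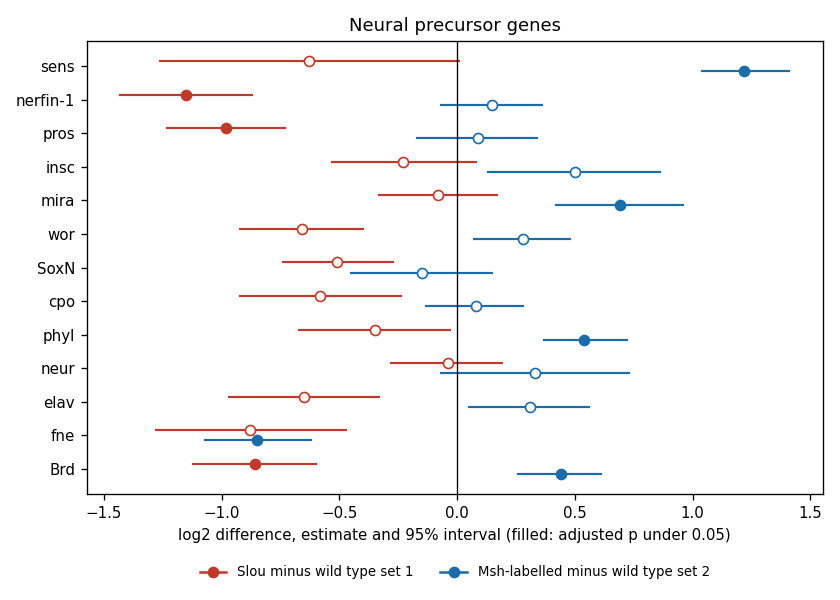
Log2 differences with 95% confidence intervals for the 13 measured neural precursor genes in Slou against wild type set 1 and in Msh against wild type set 2; filled points passed limma's test at an adjusted p of 0.05. All 13 Slou points lie under 0, with nerfin-1, pros and Brd filled, and sens is the highest Msh point at 1.22.

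Markers of other cells were read beside these neural bHLH genes, and not all lists went the same way. The summed linear level of the 10 measured markers of neurons, neuroblasts and glia was 935 to 1000 in the Slou arrays, against 1700 to 1780 in wild type set 1. In the Msh arrays it was 7400 to 7490, against 6190 to 6830 in wild type set 2. The 6 measured markers of differentiated neurons and glia alone summed to 530 to 609 in Slou, against 1150 to 1240 in wild type set 1, but overlapped at 3860 to 4210 in Msh, against 3840 to 4060 in wild type set 2. Of these 6, gcm, known from glia and also from embryonic blood cells, had the highest values in wild type set 1. It was among the 10 markers as well, so both sums leaned on it. It fell from 9.17, 9.23 and 9.15 there to 7.48, 7.51 and 7.31 in Slou (log2 difference -1.75 ± 0.11, SE, limma adjusted p = 0.00814). Which of the sorted cells expressed gcm was not examined. The mature neuron genes nSyb and brp were at background in Msh and wild type set 1, nSyb in Slou and brp in wild type set 2. The 5 measured markers of epidermis and trachea summed to 235 to 274 in Slou, against 278 to 282 in wild type set 1, and to 2540 to 2640 in Msh, against 1560 to 1770 in wild type set 2. A list of 7 epidermal genes, which includes pnr and ush, summed to 869 to 916 in Slou, against 774 to 827 in wild type set 1, and to 3980 to 4140 in Msh, against 2730 to 3100 in wild type set 2. The higher Slou sum came from pnr and ush, with log2 differences of 0.56 and 0.37, while 5 of the 7 were under 0 and none passed. The 7 mesoderm markers summed to 2580 to 2720 in Slou, against 2400 to 2430 in wild type set 1, and to 7360 to 7520 in Msh, against 6440 to 6790 in wild type set 2. Sums are on the deposited scale, so they compare only within a scaling, and they weigh the brightest genes most. In Slou 3 of the 7 mesoderm markers lay wholly higher than in wild type set 1 and 3 wholly lower. Of the 7 epidermal genes 2 lay wholly higher there and 4 wholly lower. Over all probe sets 12.5% lay wholly higher in Slou and 12.8% wholly lower. The 3′ minus 5′ log2 difference of the Act5C control, a measure of RNA or labelling quality, was 2.12 to 2.31 in Msh, against 1.4 to 1.47 in wild type set 2; it was 1.46 to 1.49 in Slou, against 1.42 to 1.46 in wild type set 1. The poly-A control probe sets averaged 5.92 to 6.13 in Slou, against 6.68 to 6.75 in wild type set 1, and 8.97 to 9.27 in Msh, against 10.47 to 11.27 in wild type set 2. The part of these measures in the changes of the bHLH genes was not tested.

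Of 15 further bHLH genes outside the members, 13 were measured, and they included the mesodermal factors. In Slou 3 fell: Hand (-2.21 ± 0.23, SE), a heart and visceral muscle gene, nau (-1.63 ± 0.14), the MyoD relative, and HLH54F (-1.53 ± 0.12), a gene of the caudal visceral mesoderm (limma, adjusted p = 0.0229, 0.0151 and 0.0115). The clock repressor gene cwo rose by 0.73 ± 0.09 (limma, adjusted p = 0.0338). In Msh twi, the mesoderm determinant whose promoter fragment drives the sorting marker, rose by 0.91 ± 0.15, and sage, a salivary gland factor, by 1.03 ± 0.19 (limma, adjusted p = 0.0392 and 0.0482). Hand and nau were lower there as well, by -0.48 ± 0.08 and -0.43 ± 0.08 (limma, adjusted p = 0.0359 and 0.0477). The effects of Slou and Msh differed for 5 of the 13, with HLH54F (-1.28 ± 0.13), nau (-1.21 ± 0.15) and Hand (-1.73 ± 0.25) lower in Slou and cwo among the 2 that were higher (limma, adjusted p = 0.000445, 0.0016, 0.00294 and 0.000941).

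Genes of the pathways in which the PAS and zipper members act, upstream or downstream of them, were counted in the same way. Of 6 clock genes, 3 lay above background in each wild-type set, and per, tim and cry did not. Of the 6, cwo alone passed in Slou and 0 passed in limma's Msh comparison, where 2 had an unadjusted p under the threshold. The effects differed for cwo (0.90 ± 0.10) and vri (0.79 ± 0.15), both higher in Slou (limma, adjusted p = 0.000941 and 0.0123). Of the 3 measured hypoxia genes of sima, 0 passed in limma's Slou or Msh comparison, and 1 had an unadjusted p under the threshold, in Msh. Of the 4 measured juvenile hormone genes, 0 passed in limma's Slou comparison, where 2 had an unadjusted p under the threshold. In Msh jhamt, which encodes an enzyme of juvenile hormone synthesis, was 14.9-fold lower (-3.9 ± 0.07, SE), and Kr-h1, a target of the hormone receptors Met and Gce, 2.65-fold lower (-1.4 ± 0.13; limma, adjusted p = 0.000867 and 0.0123). The Slou effect was higher than the Msh effect for both, by 3.23 ± 0.11 for jhamt and 1.16 ± 0.24 for Kr-h1 (limma, adjusted p = 4.21e-06 and 0.0181). The receptor genes themselves stayed near background, gce at background on all 12 arrays and Met above it on 1 Slou array, 3 Msh arrays, 1 array of wild type set 1 and 2 of wild type set 2.

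Of the 11 measured nucleolar and growth genes of Myc, 0 passed in limma's Slou comparison, where 3 had an unadjusted p under the threshold, and 1 passed in Msh, NHP2, which fell by 0.44 on the log2 scale (limma, adjusted p = 0.0403). The effects differed for 1 of them, pit (-0.38 ± 0.09; limma, adjusted p = 0.0365). Among 6 measured midline and tracheal genes of sim, trh and tgo, kni fell in Slou (-0.73 ± 0.11; limma, adjusted p = 0.0499) and btl, the tracheal FGF receptor gene, rose in Msh (1.10 ± 0.13; limma, adjusted p = 0.0202). The Slou effect on kni was lower than the Msh effect by a log2 difference of -1.08 ± 0.12 (limma, adjusted p = 0.000884).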

How the data were processed

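RNA of sorted cells was measured on 12 single-colour arrays, 3 in each of 4 groups. The deposited table holds 1 log2 value per probe set and array; per the submitters' processing notes the authors used the R package affy, and the background correction, scaling and summary are not given in the sources used here. No label ties a wild-type set to a gain of function; the pairs used share a scaling. Without 183 controls, 18769 of the 18952 probe sets entered the tests; 13647 were annotated with 1 gene, 402 with several and 4720 with none, and only those with 1 gene were named.

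Tests used limma 3.58.1 in R 4.3.3 (lmFit and eBayes without trend) with Benjamini-Hochberg adjustment over all 18769 probe sets at 0.05. Slou and Msh were each fitted on 6 arrays, and the difference of effects on 12. The fits were tested on simulated data. All 33 members are accounted for; of each other list, genes that passed were named, up to 4 per comparison by smallest p. The members and lists were chosen with earlier results of these data known. The number of arrays limits the precision, most of all near background. Replicate letters are not stated to mark a shared batch, and deviations of arrays with the same letter correlated by -0.0143 to 0.0304. These values show no strong shared effect, but cannot tell whether arrays of a letter were processed together. Alternatives covered the fit, the normalization, dim probe sets, the replicate block, the other wild-type set and each array left out. The other wild-type set was used for Slou and for Msh, and not for the difference of effects.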

Additional observations from a re-analysis of the deposited data

Results flagged for a closer look

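For 9 of the 30 members the effects of Slou and Msh differed by the test of the difference itself, the Slou effect minus the Msh effect on the log2 scale (limma over 12 arrays). It was -1.66 for tap, -1.03 for Oli, -0.85 for ase, -1.01 for l(1)sc and -1.31 for ac among the neural genes. It was -1.81 for Clk, -0.53 for emc, 0.96 for net and 0.39 for Max. Over 16 alternatives, 12 of which left out an array, the differences of emc, ase, ac, l(1)sc, tap, Oli, net and Clk passed in all 16, and that of Max in 4. None of the 16 exchanged the wild-type sets, which no label ties to a gain of function. So exchanged after quantile normalization, l(1)sc had effects of 0.44 in Slou and -0.21 in Msh, and net of -0.70 and 0.86. The difference of these exchanged effects was not tested. Groups of 3 arrays were not examined for single arrays that stand apart.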

How the results depend on the processing

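Against the main counts of 2 members and 434 probe sets, the Slou comparison called 9 and 1591 in a fit of 12 arrays, 11 and 2380 with an intensity trend, 10 and 1497 with dim probe sets left out, and 0 and 0 with the replicate block, where 2105 probe sets had an unadjusted p under the threshold. With each array left out in turn it called 0 members and 0 to 49 probe sets (without wild type set 1 replicate C, 2436 at an unadjusted p under the threshold). Against 6 members and 1278 probe sets, Msh called 6 and 1741 in a fit of 12 arrays, where tap and Max passed and ac and Fer3 did not, 15 and 3621 with a trend, 10 and 2592 without dim probe sets, 0 and 0 with the replicate block (3479 unadjusted), and 0 to 4 members and 16 to 602 probe sets with an array left out. Against 9 members and 1730 probe sets, the difference of effects called 2944 probe sets with a trend, 2702 without dim probe sets, 1107 with the replicate block (8 members), and 8 to 10 members and 1036 to 1412 probe sets with an array left out. Over the alternatives within a scaling, the Slou difference stayed between -1.24 and -1.20 for tap and between -0.90 and -0.81 for Oli. The Msh difference, calls lost included, stayed between 0.71 and 0.81 for sc, 0.56 and 0.61 for ase, 0.57 and 0.65 for l(1)sc, 0.56 and 0.63 for ac, 0.65 and 0.75 for Clk, and -1.24 and -1.07 for Fer3.

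Set against the other wild-type set as deposited, where the scalings differ, Slou called 27 members and 9737 probe sets and Msh 25 and 10015; after quantile normalization these were 10 and 2007, and 15 and 3633. As deposited, 3 Slou differences turned (sc -1.90, net -2.61, Max -1.88) and 3 Msh differences (Fer3 1.26, net 2.79, Max 1.51); after quantile normalization l(1)sc at -0.21 and net at 0.86 turned in Msh. In Slou l(1)sc at 0.44, net at -0.70 and Max at -0.05 also changed sign there. None of these 3 passed after quantile normalization or in the main fit, though all 3 passed as deposited. The cause of the differences between fits was not tested; the shift as deposited follows from the unequal scalings. Replicate letters are shared by the groups, and whether they mark shared processing is not known.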

Other observations

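Set side by side, the log2 differences of the 30 measured members were under 0 in Slou and above 0 in Msh for 12 genes, above 0 in Slou and under 0 in Msh for 4, above 0 in both for 7 and under 0 in both for 7 (Pearson's r 0.11). Over all 18769 probe sets these counts were 4865, 4386, 4867 and 4651 (r 0.06). The log2 differences of the 19 members above background in both wild-type sets were under 0 in Slou and above 0 in Msh for 9 genes, and above 0 in Slou and under 0 in Msh for 3. Both were above 0 for 4 genes and under 0 for 3. Across these 19 genes, which share the arrays of each comparison, Pearson's r was 0.24. Genes are not independent replicates, and these values are given as a description.

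Among the mesoderm markers, sns, a gene of myoblast fusion, rose in Slou by 1.59 ± 0.18 on the log2 scale and bin, a factor of visceral mesoderm, was lower by -1.64 ± 0.11 (SE; limma, adjusted p = 0.0252 and 0.00926), while 5 of the 7 did not pass. Among 7 epidermal markers, crb (0.57 ± 0.07), sdt (0.77 ± 0.11) and grh (0.68 ± 0.10) rose in Msh (limma, adjusted p = 0.0231, 0.0287 and 0.0297). None of the 7 passed in limma's Slou comparison, where 2 had an unadjusted p under the threshold.

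The Slou effect minus the Msh effect on the log2 scale passed for 4 of the 7 mesoderm markers: sns (1.56), bin (-1.76), bap (-1.06) and kirre (-0.53; limma, adjusted p = 0.00111, 5.2e-05, 0.0151 and 0.0272). It passed for 5 of the 7 epidermal markers, of which crb (-0.71), sdt (-1.03), grh (-0.98) and Egfr (-0.50) had the smallest p (limma, adjusted p = 0.00223, 0.00515, 0.00515 and 0.0408). Among the 6 markers of differentiated neurons and glia it passed for gcm (-1.61), elav (-0.96) and nSyb (2.99; limma, adjusted p = 6.74e-05, 0.00448 and 0.0169). Apart from 1 array of wild type set 2, nSyb lay at background on every array, so its value compares levels near background.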
